A study of Mus musculus with 91 samples.

Results

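The miRNAs of the extraembryonic ectoderm (Exe) of mouse embryos at embryonic day 7.5 (E7.5) were compared between embryos injected to lose both *de novo* DNA methyltransferases, named *Dnmt3a/3b*-DKO, and control embryos. All 4 *Dnmt3a/3b*-DKO and all 4 control Exe libraries of that stage were taken, 8 of the 91 libraries of the series, chosen by their labels alone, and every mature miRNA of the count table was considered. The small RNA was sequenced by CAS-seq, a small RNA library method for very low input in which Cas9 cuts away adapter dimers, and each value is the count of reads of one mature miRNA in one library. Both genotypes came from zygotes of the cross the labels give as C57BL/6 male X F1 female. Per the methods, the mothers were B6D2F1, the fathers carried the *Oct4-EGFP* transgene, and the injected zygotes developed in ICR foster mothers.

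In the *Dnmt3a/3b*-DKO embryos, mRNA of a cytosine base editor and guides against *Dnmt3a* and *Dnmt3b* had been injected together into the zygote to create premature stop codons, so each embryo carries edits of its own and no line was established. The Exe was parted from the epiblast (Epi) with a needle. The number of embryos behind a library and their sex are not given in the sources used here. Nothing says that the libraries of a genotype came from separate litters, so the p-values measure the spread between these libraries, which may be in part technical. *Dnmt3a* and *Dnmt3b* mRNA were not measured in these libraries, and the genotype could not be checked from them.

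The control libraries held 499399 to 2069678 counts and the *Dnmt3a/3b*-DKO libraries 1310824 to 2394918, so 3 counts correspond to between 1.25 and 6.01 CPM (counts scaled to the library total, per 1e+06 counts) in these 8 libraries. Of the 1504 mature miRNAs in the table, 1075 had a count in the 16 E7.5 Exe libraries of the 4 genotypes and 597 passed the filter on low counts and were tested. A miRNA was called higher or lower where its log2 fold change exceeded 0.5 in size and edgeR's quasi-likelihood test gave an unadjusted p under 0.05. These are the thresholds of the study, and the calls with an adjusted p under 0.05 are given beside them. The median log2 fold change of all tested miRNAs was -0.09.

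The tissue label was checked against miRNAs of known place. The *Sfmbt2* cluster, a large group of miRNAs inside an imprinted gene that is active in the placental lineage, took 16.1% ± 1.70 of the counts in control Exe and 15.04% ± 1.88 in *Dnmt3a/3b*-DKO Exe (SD, n = 4 each), against 0.795% ± 0.0806 (SD, n = 3) in control Epi of the same stage. The miR-302 cluster, which includes miR-367 and is typical of the Epi, took 4.49% ± 0.599 in control Exe and 22.8% ± 0.550 in control Epi. The Exe label was thus borne out by both, and miRNAs of the Epi type were present in the Exe libraries.

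A miRNA silences mRNAs that pair with its seed, bases 2 to 8 counted from its 5′ end, so miRNAs with the same seed share many possible targets. DNMT3A and DNMT3B place new methylation on DNA after implantation, among others at promoters of genes that are to be used only in the germ line. A dense cluster of miRNA hairpins on the X chromosome between *Slitrk2* and *Fmr1* is known chiefly from testis and germ cells, and is called the germline X cluster here. The *Dlk1-Dio3* locus on chromosome 12 is an imprinted region whose many miRNAs are made from the maternal copy, and let-7 miRNAs are best known for rising as cells differentiate.

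Of the 597 miRNAs tested, 40 were higher in *Dnmt3a/3b*-DKO than in control Exe (6.7%) and 9 were lower (1.51%). At the unadjusted threshold the count of lower miRNAs depended on the processing. It ran from 5, with scaling factors computed without *Dlk1-Dio3*, to 25, with only the 8 libraries. With adjusted p-values, 18 were higher (3.02%) and 0 were lower, in edgeR's quasi-likelihood test. Without regard to size, 56 had an unadjusted p under 0.05, 12 of them lower, and DESeq2 called 26 higher and 3 lower with adjusted p-values. Of the 40 higher miRNAs, 20 belong to the germline X cluster, 7 to *Dlk1-Dio3*, 5 to blood and endothelial cells, 2 to the let-7 family and 1 to mesenchymal cells, and 5 are in none of the groups examined. The germline X cluster thus gave 20 of the 40 calls and 15 of the 18 that held with adjusted p-values. The 40 calls hold 37 distinct rows of counts, and the 18 hold 17. Among the X cluster calls, 3 are the identical 3p sequence of miR-465a, b and c, and all 3 held with adjusted p-values. With identical rows counted once, the X cluster had 19 calls. Outside the cluster, 3.52% of the 568 miRNAs tested were higher and their median log2 fold change was -0.12.

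**Figure D1:**
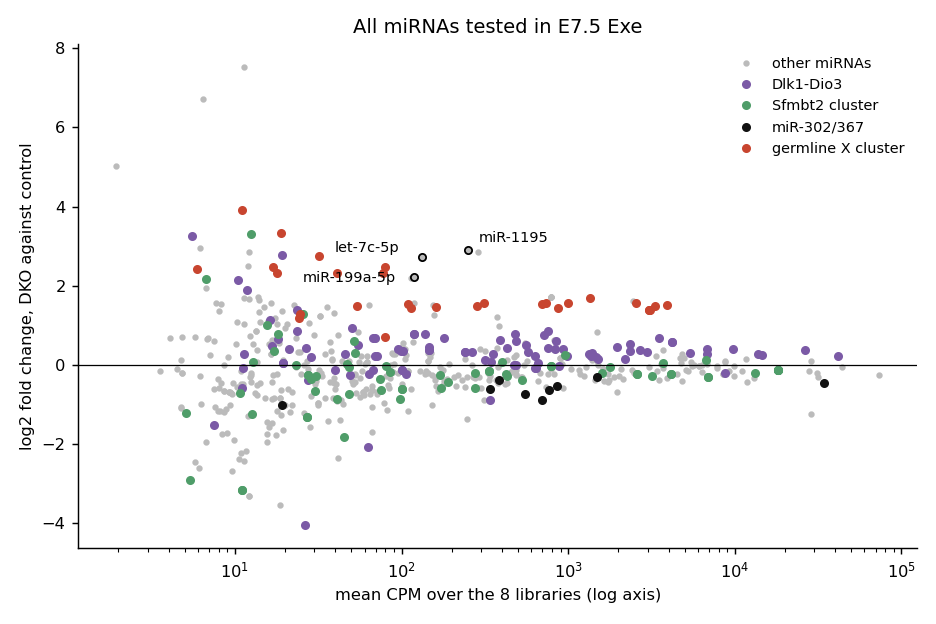
Mean CPM over the 8 libraries (horizontal, log axis) against the log2 fold change of *Dnmt3a/3b*-DKO over control E7.5 Exe (vertical) for the 597 miRNAs tested, 1 point a miRNA, coloured by group. The 29 tested members of the germline X cluster all lie above 0, while the 3 named single miRNAs, miR-1195, let-7c-5p and miR-199a-5p, stand above the cloud of the rest.

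The mature sequences of the germline X cluster are shown because this cluster holds 15 of the 18 miRNAs that were higher with adjusted p-values. They are from RefSeq (GRCm38.p6), written 5′ to 3′ with the seed in capitals, and lie on the minus strand of chromosome X. The first set holds members whose seeds differ from each other, with values per library below for all but miR-878-5p.
miR-470-5p (chrX:66813995-66814017): uUCUUGGAcuggcacuggugagu
miR-741-3p (chrX:66796809-66796831): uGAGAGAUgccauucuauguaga
miR-871-3p (chrX:66810438-66810460): uGACUGGCaccauucuggauaau
miR-880-3p (chrX:66800540-66800561): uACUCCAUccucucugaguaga
miR-878-3p (chrX:66801518-66801539): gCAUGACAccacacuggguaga
miR-878-5p (chrX:66801554-66801575): uAUCUAGUuggaugucaagaca

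The second set holds members that share a seed, with the shared letters in the same place. The 5p arms of miR-465a, b and c carry the seed AUUUAGA, their 3p arms carry AUCAGGG in 1 identical sequence, and the 3p arms of miR-743a and b carry AAAGACA.
miR-465a-5p (chrX:66839099-66839121): uAUUUAGAauggcacugauguga
miR-465b-5p (chrX:66835811-66835832): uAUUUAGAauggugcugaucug
miR-465c-5p (chrX:66826004-66826025): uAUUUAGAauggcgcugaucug
miR-465a-3p (chrX:66839063-66839084): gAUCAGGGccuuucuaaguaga
miR-465c-3p (chrX:66825965-66825986): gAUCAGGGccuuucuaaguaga
miR-743a-3p (chrX:66776760-66776781): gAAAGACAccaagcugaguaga
miR-743b-3p (chrX:66777266-66777287): gAAAGACAucaugcugaauaga
miR-743a-5p (chrX:66776794-66776815): uAUUCAGAuuggugccugucau
miR-871-5p (chrX:66810472-66810494): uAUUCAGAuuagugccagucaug

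The last set holds the scarce members whose fitted fold changes were largest.
miR-881-3p (chrX:66801954-66801975): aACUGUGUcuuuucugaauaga
miR-883a-3p (chrX:66780768-66780789): uAACUGCAacagcucucaguau
miR-463-3p (chrX:66799236-66799257): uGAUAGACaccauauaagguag

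All 38 mature members of the cluster had a sequence in the RefSeq table, and all of their 40 positions lie on the minus strand. They hold 30 different seeds, 25 of which occur once, and the 20 called members hold 14 seeds. The cluster proper runs from *Mir743* (start 66776757) to *Mir465* (end 66839125), a stretch without a protein-coding gene between *Slitrk2* (end 66661402) and *Fmr1* (start 68678536), and none of the positions printed above lies inside another gene of GENCODE vM21. *Mir201* and *Mir547*, which are counted with the cluster, lie 1211 kb from the start of *Mir743*. Because the 3p arms of miR-465a, b and c are identical, their reads cannot be told apart, and miR-465a-3p and miR-465c-3p hold the same counts in the table.

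The germline X cluster held many of the miRNAs that rose in *Dnmt3a/3b*-DKO Exe. Of its 38 members, 29 were tested, 20 were higher and 0 lower, and 15 of the 20 held with adjusted p-values, against 6.7% and 3.02% of all miRNAs tested. All 29 had a log2 fold change above 0, where 44.4% of all miRNAs did, and the median of the 29 was 1.54, with a range from 0.71 to 3.92. In 25 of the 29, every *Dnmt3a/3b*-DKO library was above every control library in CPM, which held for 10.1% of all miRNAs tested. The 9 members not tested were at 0 counts in all control libraries, and of them miR-547-3p reached 22 counts in *Dnmt3a/3b*-DKO replicate 1, while the other 8 had at most 1 count in any of the 8 libraries.

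The summed share of the cluster in the counts of a library was 1.05%, 1.48%, 1.86% and 0.752% in the control libraries and 3.36%, 3.15%, 4.16% and 4.28% in the *Dnmt3a/3b*-DKO libraries. The common miR-465 3p sequence enters this share under 3 names, each at 11.34% to 13.27% of the cluster's counts. With identical rows counted once, the means differed by 2.37 points in place of 2.46, with miR-465b-3p still counted apart. All 4 *Dnmt3a/3b*-DKO libraries lay above all 4 controls, and the means of 1.28% ± 0.485 and 3.74% ± 0.566 (SD, n = 4 each) were 2.91-fold apart. The control level is not at the limit of detection, so the cluster was already present in control Exe. In bulk tissue, more cells that make these miRNAs and more of them per cell cannot be told apart.

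miR-470-5p, the most abundant member, was at 1566, 2043, 2920 and 1358 CPM in control and at 5293, 4808, 6774 and 6569 CPM in *Dnmt3a/3b*-DKO Exe (log2 fold change 1.52 ± 0.25, SE; adjusted p = 0.00201, edgeR's quasi-likelihood test). miR-741-3p was at 1778, 1848, 2324 and 777 CPM in control and at 4257, 4356, 4712 and 6394 CPM in *Dnmt3a/3b*-DKO (1.501 ± 0.29; adjusted p = 0.00708). miR-871-3p went from 764, 1366, 1986 and 867 CPM to 3297, 3132, 4551 and 4380 CPM (1.57 ± 0.29; adjusted p = 0.00529). In each of these 3, the lowest *Dnmt3a/3b*-DKO library exceeded the highest control, and control replicate 3 was the highest of the controls.

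The members of lower level moved by about the same factor. miR-880-3p was at 419, 536, 586 and 429 CPM in control and at 1136, 1420, 1875 and 1583 CPM in *Dnmt3a/3b*-DKO Exe (1.56 ± 0.33; adjusted p = 0.0109). miR-878-3p was at 287, 455, 479 and 162 CPM in control and at 923, 830, 1223 and 1189 CPM in *Dnmt3a/3b*-DKO (1.53 ± 0.36; adjusted p = 0.0191), and miR-878-5p from the same hairpin had a log2 fold change of 1.55 ± 0.37 with the same adjusted p to 3 digits, 0.0191. The libraries of the genotypes did not overlap for either arm.

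Of the 5 seeds that several members share, 4 had all of their tested members called higher, and of the pair with AACUGCA miR-883a-3p was higher and miR-883b-3p was not called. Of the 3 tested 5p arms of miR-465, miR-465c-5p went from 262, 538, 416 and 204 CPM to 901, 772, 1469 and 1289 CPM (1.58 ± 0.32; adjusted p = 0.00942), and miR-465a-5p had a log2 fold change of 1.45 ± 0.35 (adjusted p = 0.0200). miR-465b-5p, which was scarce at 20.01, 43.2, 25.1 and 10.01 CPM in control, reached 93.6, 101, 149 and 180 CPM (2.33 ± 0.53; adjusted p = 0.0161). The common 3p sequence, listed as miR-465a-3p, went from 1251, 1959, 2464 and 957 CPM to 4341, 3872, 4908 and 4857 CPM (1.38 ± 0.31; adjusted p = 0.0136). Again no *Dnmt3a/3b*-DKO library fell into the control range.

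miR-743b-3p went from 599, 752, 862 and 270 CPM to 1709, 1659, 2254 and 2768 CPM (1.70 ± 0.36; adjusted p = 0.0109), and miR-743a-3p, with which it shares the seed AAAGACA, had a log2 fold change of 1.499 ± 0.35 (adjusted p = 0.0191). miR-871-5p, which shares AUUCAGA with miR-743a-5p, had 1.47 ± 0.37 (adjusted p = 0.0286), while miR-743a-5p passed the unadjusted threshold alone (2.47 ± 0.86; adjusted p = 0.197).

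**Figure D2:**
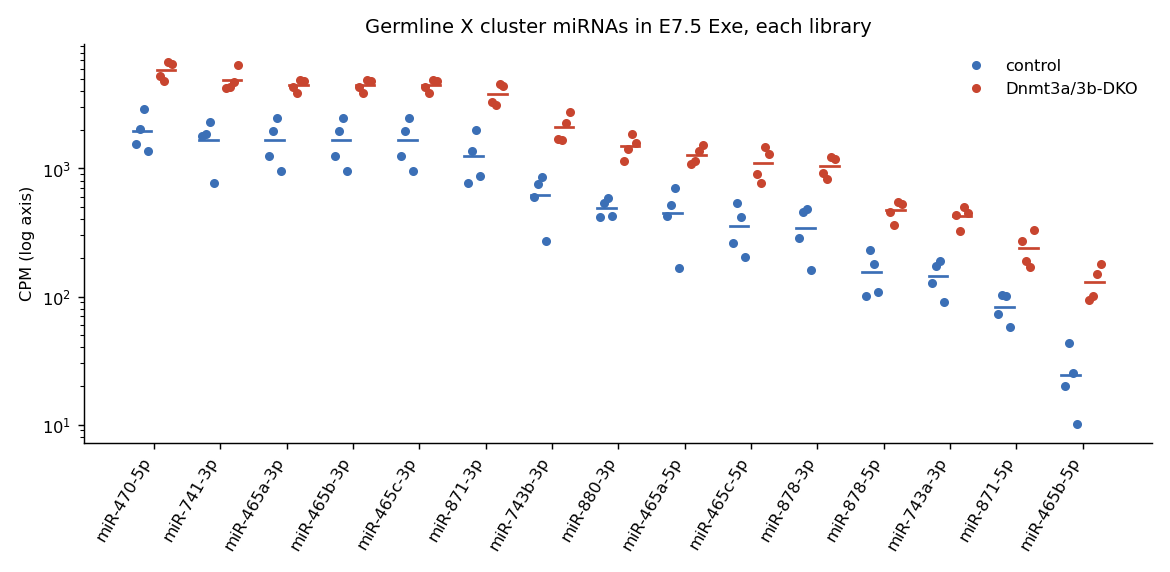
CPM (vertical, log axis) in each of the 4 control and 4 *Dnmt3a/3b*-DKO E7.5 Exe libraries for the 15 germline X cluster miRNAs with an adjusted p under 0.05, with 1 point a library and a bar at the mean of each genotype. The points of the genotypes do not overlap for any of the 15.

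The largest fitted fold changes of the cluster were those of scarce members, with wide errors. miR-881-3p had 5, 4, 19 and 5 counts in control and 63, 33, 148 and 103 in *Dnmt3a/3b*-DKO (2.74 ± 0.80; adjusted p = 0.0805). miR-883a-3p had 0, 0, 23 and 0 counts in control and 66, 44, 65 and 32 in *Dnmt3a/3b*-DKO (3.33 ± 1.34; adjusted p = 0.345), and miR-463-3p had 0, 4, 0 and 0 against 7, 25, 59 and 42 (3.92 ± 1.80; adjusted p = 0.504). These 3 passed the unadjusted threshold alone, and with counts this low in control the size of the rise is uncertain. miR-463-5p, the more abundant arm of that hairpin, was at 60.04, 49.0, 108 and 20.02 CPM in control and at 95.1, 65.4, 121.3 and 121.9 CPM in *Dnmt3a/3b*-DKO, with overlapping libraries and no call (0.71 ± 0.84; adjusted p = 0.938).

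The abundant members made up overlapping parts of the cluster in both genotypes. The cluster's counts hold the common miR-465 3p sequence under 3 names. Of the cluster's counts, miR-470-5p made up 14.95%, 13.8%, 15.7% and 18.1% in the control libraries and 15.7%, 15.3%, 16.3% and 15.3% in the *Dnmt3a/3b*-DKO libraries. miR-741-3p made up 16.98%, 12.5%, 12.5% and 10.3% in control and 12.7%, 13.8%, 11.3% and 14.9% in *Dnmt3a/3b*-DKO. The ranges overlapped for both. For the abundant hairpins miR-470, miR-741 and miR-878 the balance of the arms was within the spread between libraries. The 5p arm made up 99.3% ± 0.808 of the miR-470 counts in control and 99.4% ± 0.235 in *Dnmt3a/3b*-DKO, and 0.824% ± 0.554 and 0.731% ± 0.304 of those of miR-741. It made up 31.7% ± 6.53 and 31.3% ± 1.32 of those of miR-878 (SD, n = 4 each). For miR-465b it made up 1.44% ± 0.542 in control and 2.79% ± 0.623 in *Dnmt3a/3b*-DKO, a larger gap than the spread. The 3p reads of miR-465b cannot be told from those of miR-465a and c. Scarce hairpins had wider gaps, with a 5p share of 97.8% ± 4.35 in control and 83.9% ± 9.36 in *Dnmt3a/3b*-DKO for miR-463, and of 13.8% ± 5.72 and 24.0% ± 6.70 for miR-743a. The shares were not tested.

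Other miRNAs of the X chromosome did not share the call. Of 104 mature X-linked miRNAs outside the cluster, 46 were tested, 0 were higher and 0 lower at the unadjusted threshold of edgeR's quasi-likelihood test, and their median log2 fold change was -0.24. The cluster of miR-322 and miR-503, an X-linked group that slows the cell cycle and is abundant in placental tissue, had 11 members tested, again with 0 calls in either direction and a median of -0.24. DESeq2 also called 0 members of either list in either direction.

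The other genotypes of E7.5 Exe are set beside these values because they share the same 4 control libraries. The cluster took 3.23% to 3.70% of the counts in *Dnmt1*-KO Exe, which lost the maintenance methyltransferase, and 3.11% to 4.01% in *Dnmt*-null Exe, which lost all 3 enzymes, against 3.15% to 4.28% in *Dnmt3a/3b*-DKO. Against control, 18 of the 29 members were higher in *Dnmt1*-KO, 12 with adjusted p-values, with a median of 1.41, and 19 of 29 in *Dnmt*-null, 17 with adjusted p-values, with a median of 1.68. Of all miRNAs, 10.6% were higher in *Dnmt1*-KO, 4.19% with adjusted p-values, and 11.6% in *Dnmt*-null, 6.87% with adjusted p-values.

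Tested directly, *Dnmt3a/3b*-DKO and *Dnmt1*-KO Exe differed in 1 of the 29, miR-743b-3p, which was higher in *Dnmt3a/3b*-DKO at the unadjusted threshold only (0.82 ± 0.35; adjusted p = 0.335, edgeR's quasi-likelihood test). *Dnmt*-null differed from *Dnmt3a/3b*-DKO Exe in 0 of 29. Of all 597 miRNAs, 5.19% were higher in *Dnmt3a/3b*-DKO than in *Dnmt1*-KO, and 4.02% were higher and 5.53% lower in *Dnmt*-null than in *Dnmt3a/3b*-DKO. The median difference over the members was 0.28 for *Dnmt3a/3b*-DKO over *Dnmt1*-KO and -0.08 for *Dnmt*-null over *Dnmt3a/3b*-DKO on the log2 scale.

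**Figure D3:**
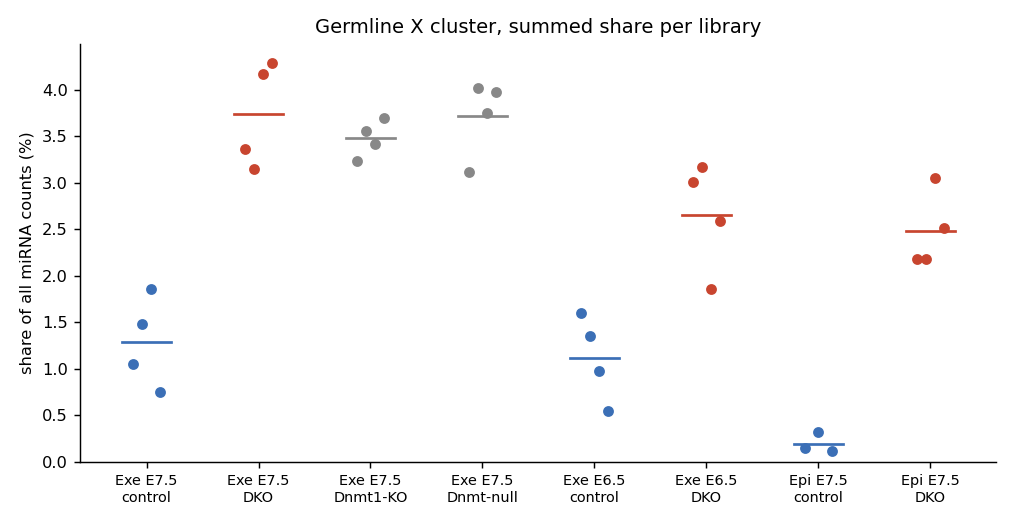
Summed share of the germline X cluster in the counts of each library (vertical, percent), with 1 point a library and a bar at the mean, for the 4 genotypes of E7.5 Exe and for control and *Dnmt3a/3b*-DKO in E6.5 Exe and E7.5 Epi. In each tissue and stage the *Dnmt3a/3b*-DKO libraries lie above the control libraries, and the controls of E7.5 Epi, with a mean of 0.195%, are the lowest.

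The same cluster was measured in other tissue and at an earlier stage, with other controls. In E7.5 Epi it took 0.195% ± 0.108 of the counts in control (SD, n = 3) and 2.48% ± 0.413 in *Dnmt3a/3b*-DKO (SD, n = 4), a 12.7-fold difference against 2.91-fold in Exe. There 25 of 27 members tested were higher, 20 of them with adjusted p-values, where 12.9% and 5.83% of all miRNAs were. The control level was thus lower in Epi, while the *Dnmt3a/3b*-DKO levels of the tissues were closer. The difference of the effect itself was tested for 30 members, and in 19 the effect was smaller in Exe than in Epi, 14 of them with adjusted p-values, with a median of -2.30 on the log2 scale. Of all miRNAs in that test, 13.2% were smaller in Exe, and 4.12% with adjusted p-values.

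For miR-470-5p, a log2 fold change of 1.52 in Exe stood against 3.82 ± 0.34 in E7.5 Epi, with a difference of -2.47 (adjusted p = 0.000982, edgeR's quasi-likelihood test). In E6.5 Exe, where the libraries were shallower and 376 miRNAs were tested, the cluster took 1.12% ± 0.462 in control and 2.65% ± 0.586 in *Dnmt3a/3b*-DKO (SD, n = 4 each), 2.37-fold apart and without overlap. There 9 of 21 members tested were higher, 0 of them with adjusted p-values, where 3.46% of all miRNAs were higher, 0.266% with adjusted p-values. The effects at E7.5 and E6.5 in Exe differed in 0 of 27 members at the unadjusted threshold of edgeR's quasi-likelihood test, where the effect was larger at E7.5 in 2.41% of all miRNAs and smaller in 1.85%. DESeq2 called 1 member in that test.

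Outside the X cluster, 3 miRNAs were higher with adjusted p-values. They are shown with miR-1946b, which passed the unadjusted threshold, and with let-7a-5p, which carries the seed of let-7c-5p. miR-1195 and miR-1946b resemble parts of the B1 short interspersed repeat, of which the mouse genome holds very many copies, and how reads that match several places were treated is not given in the sources used here.
miR-1195 (chr17:70860558-70860580, minus strand): uGAGUUCGaggccagccugcuca
miR-1946b (chr9:21613452-21613477, minus strand): gCCGGGCAgugguggcacaugcuuuu
miR-199a-5p (chr1:162217844-162217866, plus strand): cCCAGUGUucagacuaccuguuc
let-7c-5p (chr16:77599672-77599693, plus strand): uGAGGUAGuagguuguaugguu
let-7a-5p (chr13:48538239-48538260, minus strand): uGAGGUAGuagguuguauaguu

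miR-1195 had the smallest p of all miRNAs tested. It was at 16.7, 44.4, 76.3 and 92.1 CPM in control and at 466.6, 508, 320 and 481 CPM in *Dnmt3a/3b*-DKO Exe (2.91 ± 0.44; adjusted p = 0.00137, edgeR's quasi-likelihood test), so that the lowest *Dnmt3a/3b*-DKO library was well above the highest control. Against the same controls, the log2 fold change was 3.32 in *Dnmt1*-KO and 2.57 in *Dnmt*-null Exe. In E7.5 Epi it was 3.12 (adjusted p = 2.77e-06), with a difference from Exe of -0.40 (adjusted p = 0.949), and in E6.5 Exe 0.42 ± 0.89 (adjusted p = 0.950).

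miR-1946b was at 26.7, 85.2, 38.2 and 84.1 CPM in control and at 180, 199, 139 and 200 CPM in *Dnmt3a/3b*-DKO (1.57 ± 0.48; adjusted p = 0.0965), and miR-1946a had 1.51 ± 0.52 (adjusted p = 0.197). Both had *Dnmt3a/3b*-DKO libraries above all controls. The last calls without a group, miR-7688-5p and miR-12198-3p, had 0 counts in all controls. miR-7688-5p had 99, 0, 0 and 39 counts in *Dnmt3a/3b*-DKO and miR-12198-3p 6, 41, 27 and 0, so neither was seen in every *Dnmt3a/3b*-DKO library. Against a floor of 3 counts in each control library, they were at least 5.70-fold and at least 3.22-fold higher.

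miR-199a-5p, which is typical of mesenchymal cells and is made from a transcript antisense to *Dnm3* on chromosome 1 and from another copy inside an intron of *Dnm2*, on the opposite strand, on chromosome 9, was at 50.03, 51.4, 37.2 and 24.0 CPM in control and at 191, 172, 245 and 184 CPM in *Dnmt3a/3b*-DKO Exe (2.22 ± 0.40; adjusted p = 0.00515). The genotypes lay far apart for this arm. The opposite arm, miR-199a-3p, which is listed with the same counts as miR-199b-3p, was at 3.34, 40.9, 5.32 and 26.0 CPM in control and at 11.3, 113, 39.7 and 19.2 CPM in *Dnmt3a/3b*-DKO, with overlap and no call (1.23 ± 1.01; adjusted p = 0.891). Of 9 mesenchymal miRNAs fixed as markers, 7 were tested, 1 was higher and 0 lower, with a median of 0.10, and their summed share was 0.0452% to 0.147% in control and 0.0798% to 0.153% in *Dnmt3a/3b*-DKO. Their part in the result was not tested. The log2 fold change of miR-199a-5p was 1.93 in *Dnmt1*-KO and 3.38 in *Dnmt*-null Exe against the same controls, and 0.93 (adjusted p = 0.460) in E7.5 Epi.

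let-7c-5p was at 23.3, 46.7, 39.1 and 24.0 CPM in control and at 164, 374, 211 and 176 CPM in *Dnmt3a/3b*-DKO Exe (2.72 ± 0.73; adjusted p = 0.0457). let-7a-5p was at 250, 219.4, 205 and 202 CPM in control and at 472, 752, 394 and 490 CPM in *Dnmt3a/3b*-DKO (1.22 ± 0.35; adjusted p = 0.0803). Both were higher in all *Dnmt3a/3b*-DKO libraries than in any control, and replicate 2 was the highest. Without *Dnmt3a/3b*-DKO replicate 2, let-7c-5p remained at 2.36 with an adjusted p of 0.163, and let-7a-5p at 0.97 with 0.315.

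The let-7 family has 22 mature members in the table, and 9 were tested, of which 2 were higher, 0 were lower and 1 held with adjusted p-values, where 6.7% of all miRNAs were higher and 3.02% with adjusted p-values. The other 7 were let-7b, d, e, f, g and i and the 3p arm of let-7d, and they overlapped between the genotypes. let-7f-5p was at 215, 341, 357 and 94.1 CPM in control and at 258, 1169, 313 and 343 CPM in *Dnmt3a/3b*-DKO (0.99 ± 0.51), where replicate 2 alone was above the controls. The median of the 9 was 0.99, and 0.19 without that replicate. The summed share of the family was 0.0873% to 0.133% in control and 0.146% to 0.388% in *Dnmt3a/3b*-DKO, without overlap.

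**Figure D4:**
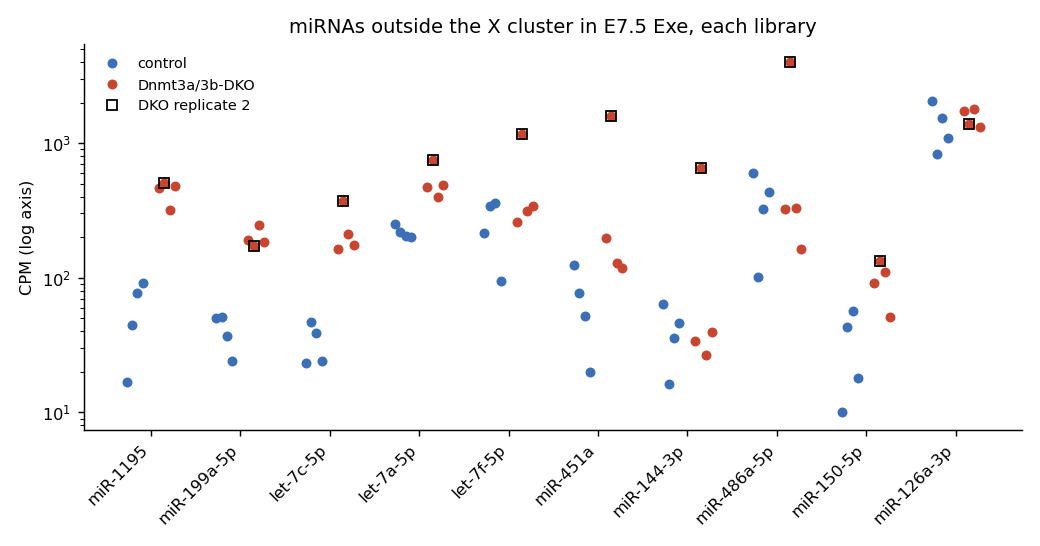
CPM (vertical, log axis) in each control and *Dnmt3a/3b*-DKO E7.5 Exe library for miR-1195, miR-199a-5p, 3 let-7 miRNAs and 5 miRNAs of blood and endothelial cells, with *Dnmt3a/3b*-DKO replicate 2 drawn as a square. miR-1195, miR-199a-5p, let-7c-5p and let-7a-5p do not overlap between the genotypes, whereas in miR-451a, miR-144-3p and miR-486a-5p the square stands far above all other points.

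*Dnmt3a/3b*-DKO replicate 2 stood apart in miRNAs of blood cells. Of 19 mature miRNAs of blood and endothelial cells, 13 were tested, 5 were higher and 0 held with adjusted p-values, and none was free of overlap between the genotypes. Among all miRNAs tested, 6.7% were higher, 3.02% with adjusted p-values, and 10.1% were free of overlap in the higher direction. miR-451a, the erythroid miRNA that is cut by Argonaute instead of Dicer, was at 123, 77.0, 51.7 and 20.02 CPM in control and at 196, 1584, 128 and 117 CPM in *Dnmt3a/3b*-DKO (2.85 ± 0.99; adjusted p = 0.197). miR-486a-5p was at 599, 102, 326 and 430 CPM in control and at 326, 4031, 328 and 164 CPM in *Dnmt3a/3b*-DKO (1.72 ± 0.81; adjusted p = 0.517). In both, 1 library made the difference. The miR-486a and miR-486b arms are listed with the same counts in pairs, so the 5 calls rest on 3 rows of counts. The 5p and 3p rows of miR-486 are nearly equal, at 4031 and 4030 CPM in *Dnmt3a/3b*-DKO replicate 2.

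Without *Dnmt3a/3b*-DKO replicate 2, 15 of the 19 were tested and 0 were higher or lower in edgeR's quasi-likelihood test, miR-451a was at 1.02 and miR-486a-5p at -0.49, and the median of the list went from 1.51 to 0.26. The summed share of the list was 0.337% to 1.07% in control and 0.700% to 2.39% in *Dnmt3a/3b*-DKO. miR-126a-3p, the endothelial miRNA, was at 0.14 ± 0.50. The germline X cluster had 19 of 29 members higher without that library, 15 with adjusted p-values, and a median of 1.60.

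The miRNAs of *Dlk1-Dio3* took a larger share of the counts in *Dnmt3a/3b*-DKO Exe, while few of them passed the test singly. The 113 mature miRNAs whose genes lie between *Dlk1* (start 109452485) and *Dio3* (end 110281097) on chromosome 12 took 16.99%, 14.6%, 17.8% and 15.9% of the counts in control and 21.9%, 19.97%, 19.4% and 21.4% in *Dnmt3a/3b*-DKO Exe. All 4 *Dnmt3a/3b*-DKO libraries lay above all controls, and the means of 16.3% ± 1.36 and 20.7% ± 1.18 (SD, n = 4 each) were 1.27-fold apart. Of 95 members tested, 7 were higher and 2 lower, and 0 in either direction with adjusted p-values, near the 6.7% and 1.51% of all miRNAs tested. The count of higher members depended on the fit. It was 15, of 50 among all miRNAs, with scaling factors computed without the locus, and 14, of 48, with only the 8 libraries. Without *Dnmt3a/3b*-DKO replicate 1 it was 4, of 39. Of the 95, 75 were above 0, against 44.4% of all miRNAs, with a median of 0.34, and 26 had no overlap in the higher direction, where 10.1% of all miRNAs did.

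All 7 higher miRNAs are made from the part of the locus around *Mirg*, a transcript that holds most of its miRNAs. The 4 with the smallest p are shown, on the plus strand of chromosome 12.
miR-485-3p (chr12:109734946-109734967): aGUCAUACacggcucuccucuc
miR-134-5p (chr12:109734145-109734166): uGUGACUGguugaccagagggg
miR-323-3p (chr12:109712558-109712578): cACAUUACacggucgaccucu
miR-543-3p (chr12:109717304-109717325): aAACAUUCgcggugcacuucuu

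miR-485-3p was at 2290, 2720, 2530 and 2972 CPM in control and at 5868, 3491, 4634 and 3394 CPM in *Dnmt3a/3b*-DKO Exe (0.68 ± 0.20; adjusted p = 0.0894). miR-134-5p, known from neuronal dendrites, was at 537, 455, 526 and 583 CPM in control and at 1209, 609, 778 and 1335 CPM in *Dnmt3a/3b*-DKO (0.86 ± 0.29; adjusted p = 0.178). miR-543-3p and miR-323-3p had 0.76 ± 0.28 and 0.52 ± 0.19 (adjusted p = 0.249 and 0.210). None of these overlapped between the genotypes, and none held with adjusted p-values. The remaining calls were miR-377-3p, miR-666-5p and miR-379-5p, at 0.78, 0.62 and 0.60.

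By their place in the locus, 62 miRNAs around *Mirg* were tested, with 7 higher, 0 lower and a median of 0.37, where 6.7% of all miRNAs were higher. With 1 library left out in turn, 4 to 9 of those around *Mirg* were higher. Of the 10 miRNAs antisense to *Rtl1*, 0 were called in either direction, with a median of 0.30, although 6 had no overlap in the higher direction. Of 11 next to *Meg3*, 0 were higher and 1 was lower, with a median of 0.16. Of 5 in *Rian*, 0 were called, with a median of 0.26. miR-127-3p, the most abundant miRNA of the locus, was at 36649, 34070, 43333 and 36156 CPM in control and at 45378, 43933, 44780 and 48055 CPM in *Dnmt3a/3b*-DKO, without overlap but without a call (0.24 ± 0.14; adjusted p = 0.695, edgeR's quasi-likelihood test). miR-409-3p was at 22494 ± 1917 CPM in control and 30186 CPM on average in *Dnmt3a/3b*-DKO (0.38 ± 0.14; adjusted p = 0.243, edgeR's quasi-likelihood test), under the size threshold.

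The study deleted 6 miRNAs in AG-haESCs, haploid stem cells, namely miR-127, miR-369, miR-409, miR-540, miR-541 and let-7b, which it had picked for being higher in *Dnmt*-null embryos of this series, so they are no independent list. Their mature products numbered 12 in the table. Of them 11 were tested, 0 were higher and 1 was lower, where 6.7% and 1.51% of all miRNAs were. In 6 of the 11 every *Dnmt3a/3b*-DKO library was above every control, and their summed share was 7.67% on average in control and 9.32% in *Dnmt3a/3b*-DKO, without overlap. The lower one was miR-540-3p, at 525, 365, 578 and 268 CPM in control and 378, 149, 172 and 283 CPM in *Dnmt3a/3b*-DKO (-0.87 ± 0.37; adjusted p = 0.403), with overlap. miR-541-5p was at -0.21 ± 0.20 and miR-369-3p at 0.36 ± 0.80. The other arms of miR-540 and miR-541 went the other way, without a call. With 1 library left out in turn, miR-540-5p was at 2.32 to 3.95 and miR-541-3p at 0.54 to 0.91. let-7b-5p, at 0, 33.9, 14.01 and 26.0 CPM in control and 26.4, 166, 6.87 and 12.5 CPM in *Dnmt3a/3b*-DKO, had its highest value in replicate 2 (1.46 ± 1.03).

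At E6.5, the fold changes of miR-540-3p and miR-541-5p had the opposite sign, though miR-541-5p was not called at E7.5. The log2 fold change of miR-540-3p in Exe was 1.53 at E6.5 (adjusted p = 0.238) and -0.87 at E7.5, with a difference of -2.69 (adjusted p = 0.0421). That of miR-541-5p was 1.02 at E6.5 (adjusted p = 0.0492) and -0.21 at E7.5, with a difference of -1.46 (adjusted p = 0.0258). These were the only 2 of 540 miRNAs (0.37%) for which the stages differed with adjusted p-values in edgeR's quasi-likelihood test. In E7.5 Epi, miR-540-3p was at -1.95 (adjusted p = 1.23e-05) and miR-541-5p at -0.71 (adjusted p = 0.000207).

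*Dnmt3a/3b*-DKO Exe had fewer calls at *Dlk1-Dio3* than the other mutants, which were compared with the same controls. The share of the locus was 21.6% to 24.9% in *Dnmt1*-KO and 20.1% to 25.8% in *Dnmt*-null Exe, against 19.4% to 21.9% in *Dnmt3a/3b*-DKO. In *Dnmt1*-KO, 30 of the 95 were higher, 10 with adjusted p-values, and in *Dnmt*-null 27, 13 with adjusted p-values. The shares of all miRNAs also differed. They were 10.6% in *Dnmt1*-KO, 4.19% with adjusted p-values, and 11.6% in *Dnmt*-null, 6.87% with adjusted p-values. In *Dnmt3a/3b*-DKO they were 6.7% and 3.02%. Tested directly, 12 of the 95 were lower in *Dnmt3a/3b*-DKO than in *Dnmt1*-KO, 1 with an adjusted p-value, and 0 were higher, where 5.36% of all miRNAs were lower, 0.503% with adjusted p-values. In *Dnmt*-null, 8 were higher than in *Dnmt3a/3b*-DKO, 2 with adjusted p-values, and 0 were lower, where 4.02% of all miRNAs were higher, 1.34% with adjusted p-values.

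miR-1247-3p, in an exon of *Dio3os* at the far end of the locus, was 1 of the 2 miRNAs of the locus called lower, with miR-540-3p. Its sequence is shown with those of some lower miRNAs of other loci and with that of miR-302b-3p, which was not called.
miR-1247-3p (chr12:110278058-110278078, minus strand): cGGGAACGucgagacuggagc
miR-130a-3p (chr2:84741116-84741137, minus strand): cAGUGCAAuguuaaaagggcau
miR-302c-5p (chr3:127545368-127545389, plus strand): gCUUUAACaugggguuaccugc
miR-302d-5p (chr3:127545629-127545651, plus strand): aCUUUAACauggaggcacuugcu
miR-302b-3p (chr3:127545275-127545297, plus strand): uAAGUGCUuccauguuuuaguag

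miR-1247-3p was at 21.7, 66.5, 44.0 and 68.1 CPM in control and at 6.04, 0, 0 and 5.85 CPM in *Dnmt3a/3b*-DKO Exe (-4.05 ± 1.35; adjusted p = 0.170), and every *Dnmt3a/3b*-DKO library was below every control. Of the 9 lower miRNAs, 6 had no overlap between the genotypes, where 3.52% of all miRNAs tested had none in that direction, and 0 held with adjusted p-values in edgeR's quasi-likelihood test.

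miR-5099 was the most abundant of the lower miRNAs and was below all controls in every *Dnmt3a/3b*-DKO library. It was at 37172, 36597, 42470 and 44255 CPM in control and at 14687, 16502, 21184 and 17210 CPM in *Dnmt3a/3b*-DKO Exe (-1.25 ± 0.38; adjusted p = 0.0965). In the direct tests of E7.5 Exe it was at -1.89 in *Dnmt3a/3b*-DKO against *Dnmt1*-KO (adjusted p = 0.0157) and at 2.03 in *Dnmt*-null against *Dnmt3a/3b*-DKO (adjusted p = 0.00322). The *Dnmt1*-KO libraries were wide apart, at 92009, 81371, 31421 and 29394 CPM, so that 2 of them also lay below every control. The *Dnmt3a/3b*-DKO effect on miR-5099 was -1.26 in E7.5 Epi (adjusted p = 0.00262), -0.35 in E6.5 Exe (adjusted p = 0.941) and 1.45 in E6.5 Epi (adjusted p = 0.00169), so its direction was not the same in every tissue and stage.

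miR-130a-3p was at 554, 193.8, 312 and 344 CPM in control and at 190, 111, 114 and 147 CPM in *Dnmt3a/3b*-DKO (-1.35 ± 0.50; adjusted p = 0.240). miR-378a-3p, from an intron of a metabolic coactivator gene, was at 869, 1112, 1377 and 1073 CPM in control and at 706, 864, 787 and 697 CPM in *Dnmt3a/3b*-DKO (-0.58 ± 0.21; adjusted p = 0.210). Neither overlapped between the genotypes. miR-296-5p, from an imprinted locus on chromosome 2, was at -1.70 ± 0.69 (adjusted p = 0.361) with overlap, and its other arm, miR-296-3p, at -0.29 ± 0.27. Of 9 miRNAs of imprinted loci other than *Dlk1-Dio3* and *Sfmbt2*, miR-296-5p was the only one called.

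The miR-302 cluster, which is abundant in pluripotent cells of the Epi, lies in an intron of *Larp7* on the opposite strand. Of its 10 mature miRNAs, 9 were tested, 0 were higher and 2 lower, while 1.51% of all miRNAs were lower, and 0 held with adjusted p-values in edgeR's quasi-likelihood test. All 9 were below 0, with a median of -0.62, where 44.4% of all miRNAs were above 0. The count of lower members rested on single libraries and was 0 without control replicate 2 and 4 without *Dnmt3a/3b*-DKO replicate 2. miR-302c-5p was at 595, 872, 596 and 655 CPM in control and at 380, 476, 301 and 537 CPM in *Dnmt3a/3b*-DKO Exe (-0.73 ± 0.29; adjusted p = 0.345), and miR-302d-5p at 806, 1199, 776 and 819 CPM and at 523, 485.7, 414 and 587 CPM (-0.89 ± 0.37; adjusted p = 0.375). Neither overlapped. The most abundant member, miR-302b-3p, overlapped and was not called (-0.45 ± 0.26; adjusted p = 0.683).

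The summed share of this cluster was 3.64% to 5.05% in control and 2.57% to 4.08% in *Dnmt3a/3b*-DKO Exe, with overlap, against 22.8% in control Epi. How far remains of Epi cells in the dissected Exe moved with the genotype was not tested. In E7.5 Epi the *Dnmt3a/3b*-DKO share was 22.2% ± 0.335 (SD, n = 4).

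**Figure D5:**
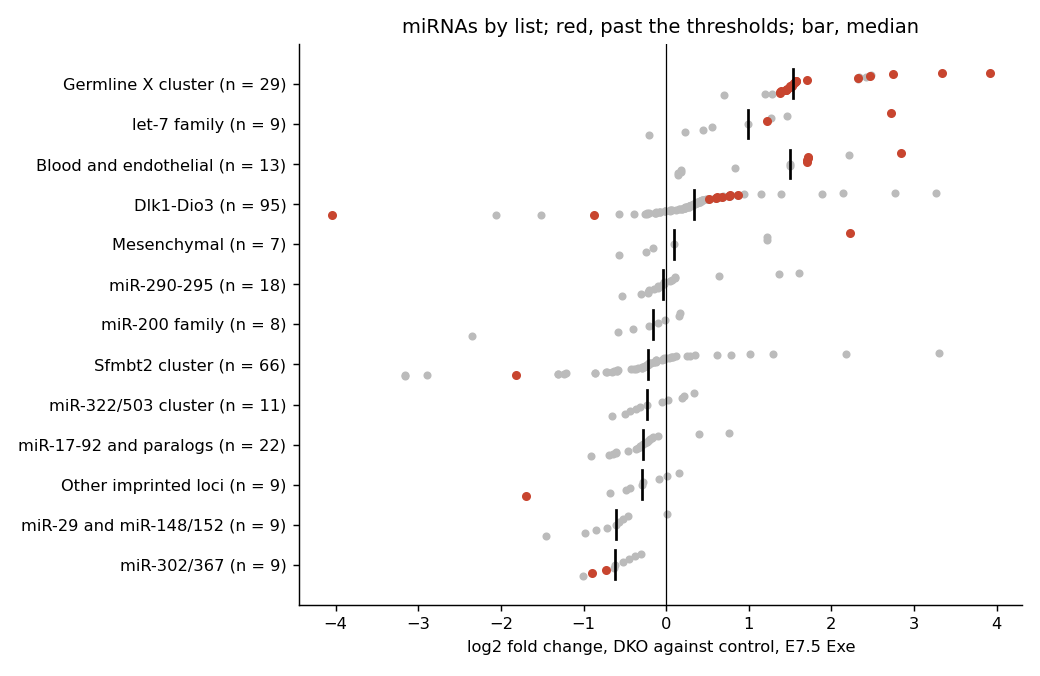
Log2 fold change of *Dnmt3a/3b*-DKO over control E7.5 Exe (horizontal) of each tested miRNA by group, with the calls in red and a bar at the median of a group. The germline X cluster lies wholly above 0 with a median of 1.54, *Dlk1-Dio3* is shifted to 0.34, and the miR-302 cluster lies wholly below 0 with a median of -0.62.

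The miRNAs that mark the tissue itself had 1 call. Of 78 members of the *Sfmbt2* cluster, 66 were tested, 0 were higher and 1 was lower, miR-466e-5p (-1.82 ± 0.76; adjusted p = 0.390), with a median of -0.22. All 18 members of the miR-290 cluster, typical of early embryonic and placental cells, were tested with 0 calls and a median of -0.04. Its most abundant product, miR-295-3p, was at 41585, 50329, 39568 and 45887 CPM in control and at 38824, 47259, 48573 and 42031 CPM in *Dnmt3a/3b*-DKO (-0.05 ± 0.13). miR-92a-3p, the most abundant miRNA of all, was at 78785 ± 7528 CPM in control and 68076 CPM on average in *Dnmt3a/3b*-DKO (-0.25).

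The remaining groups had 0 calls in either direction at the unadjusted threshold of edgeR's quasi-likelihood test. They were the miR-17 cluster with its paralogs, which drive proliferation, with 22 tested, 2 of them above 0, and a median of -0.28, and miR-29 with miR-148 and miR-152, which are known to target the methyltransferases, with 9 tested and a median of -0.61. The summed share of the miR-17 group was 8.98% on average in control and 7.76% in *Dnmt3a/3b*-DKO, with every *Dnmt3a/3b*-DKO library below every control. The miR-200 family, of epithelial cells, had 8 tested with a median of -0.16, and the miR-183 cluster had 6 with a median of -0.03. Of the *Hox* cluster miRNAs 5 were tested, with a median of -0.10, and of the miR-34 family, which follows p53, 2 were tested at -1.95 and 0.58. Of endoderm markers 5 were tested, with a summed share of 0.308% to 0.524% in control and 0.437% to 0.547% in *Dnmt3a/3b*-DKO, and of neural markers 6, with a share of 0.0110% to 0.0190% in control and 0.00626% to 0.0205% in *Dnmt3a/3b*-DKO.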

How the data were processed

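Small RNA counts of E7.5 Exe from the 4 *Dnmt3a/3b*-DKO and 4 control libraries were analysed. Per the methods, total RNA was extracted with the miRNeasy Micro kit and a small amount of it entered CAS-seq (adapter ligation, first-strand synthesis, Cas9 treatment, in vitro transcription on beads, reverse transcription, PCR and gel purification) before sequencing on a NovaSeq. The authors removed adapters with fastp 0.20.1, mapped the reads to GRCm38 with bowtie 1.2.1.1 and then to mature sequences of miRBase, where the 3′ end was allowed to be shorter or longer. The values the authors deposited are raw counts of reads per mature miRNA and library. They are whole numbers. Molecular identifiers are not described, so amplified copies cannot be told apart and counts are not molecules. Some names hold the same counts in the table, such as miR-465a-3p and miR-465c-3p, which share a sequence. miR-465b-3p has that sequence too, but its counts differ slightly in *Dnmt3a/3b*-DKO Exe, with a mean of 4499 CPM against 4494 CPM. Some names of opposite arms also hold the same counts, such as miR-126a-3p and miR-126b-5p, miR-290a-3p and miR-290b-5p, and miR-136-5p and miR-3071-3p. The groups count each name, so such counts enter the blood, miR-290 and *Dlk1-Dio3* groups repeatedly.

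CPM and percent shares were computed here from the deposited counts and the library total, without normalization factors. Tests used edgeR 4.0.16 under R 4.3.3 (glmQLFit and glmQLFTest), with TMM factors and filterByExpr by group at a count minimum of 10, in 1 model of the 16 E7.5 Exe libraries, so that the genotypes share an estimate of the spread. A call needed a log2 fold change beyond 0.5 in either direction and p under 0.05 before adjustment, and Benjamini-Hochberg adjusted p-values ran over all miRNAs tested. The SE was the absolute log2 fold change divided by the square root of F. Effects in E6.5 Exe and E7.5 Epi were fitted within each tissue and stage, and their differences as interaction terms. All tests were two-sided, and the script was first tested on simulated data with known changes.

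The alternatives were DESeq2 1.42.0, RLE factors, TMM factors without the *Dlk1-Dio3* or *Sfmbt2* miRNAs, no filter, a mean of at least 10 counts, only the 8 libraries, the replicate number as a block, adjusted p-values, thinning to 266379 counts and leaving out each library. Counting identical rows once and TMM factors without the germline X cluster were added after seeing the data. Libraries of a group were compared in pairs and looked like separate libraries, with a chi-square per degree of freedom of 19.9 to 122.8. The members and lists were chosen with earlier results of these data known. miRNAs were named by a rule: up to 12 in each direction by adjusted p and size, or else by p, the 10 most abundant, the products of the deleted hairpins and of miR-296, and up to 4 called members of each list. Other named miRNAs were chosen after their values were seen. Of the 1504 miRNAs, 1495 were matched to a gene by name in RefSeq GRCm38.p6 or GENCODE vM21. The deposited lists of the authors' own comparisons, where present, were not used here.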

Additional observations from a re-analysis of the deposited data

Results flagged for a closer look

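In 8 of 112 groups of 4 values examined, over 48 named miRNAs and the summed shares, 1 library stood apart from the other 3 by Dixon's criterion, which chance alone meets in about 1 in 20 groups. In 6 of the 8 it was *Dnmt3a/3b*-DKO replicate 2, the highest library in each. These were miR-451a at 1584 CPM (nearest library 195.6), miR-486a-5p and miR-486b-5p at 4031 CPM, miR-486a-3p at 4030 CPM (nearest 328 for all 3), let-7b-5p at 165.9 CPM (nearest 26.43) and the let-7 family with a share of 0.3882% (nearest 0.1784%). The 3 miR-486 entries rest on the same reads or the same hairpin. The other groups were miR-302d-5p in control, where replicate 2 was at 1199 CPM (nearest 819), and miR-541-3p in *Dnmt3a/3b*-DKO, where replicate 3 was at 272.3 CPM, above the other 3.

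The *Dnmt3a/3b*-DKO effect of 8 germline X cluster miRNAs differed between E7.5 Exe and E7.5 Epi by the interaction test of edgeR. It was smaller in Exe by -2.696 for miR-880-3p, -2.467 for miR-470-5p, -2.351 for miR-465c-5p, -2.3 for miR-741-3p, -2.237 for miR-743b-3p, -2.202 for miR-878-3p, -2.093 for miR-878-5p and -2.032 for miR-871-3p, all on the log2 scale. Between E7.5 and E6.5 Exe, the effect differed by -2.695 for miR-540-3p and by -1.457 for miR-541-5p.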

How the results depend on the processing

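The count of higher miRNAs stayed between 33 and 53 under the other fits and thresholds, except 18 with adjusted p-values, and the germline X cluster kept 18 to 20 of its 20 calls, or 15 with adjusted p-values. Without 1 library it ranged from 32 (without *Dnmt3a/3b*-DKO replicate 2) to 46 (without *Dnmt3a/3b*-DKO replicate 3). The count of lower miRNAs depended more on the processing. It was 9, and 5 with TMM factors without *Dlk1-Dio3*, 21 without a filter, 25 with only the 8 libraries, 14 with DESeq2 and 0 with adjusted p-values, and without 1 library it ranged from 6 (without control replicate 1) to 24 (without *Dnmt3a/3b*-DKO replicate 4; 18 without replicate 1). The cause of these changes was not tested.

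At *Dlk1-Dio3*, 15 were higher and 1 lower with TMM factors without that locus, with a median of 0.45, 14 were higher with only the 8 libraries, 11 with TMM factors without the germline X cluster, and 0 in both directions with adjusted p-values. Without 1 library, 4 (without *Dnmt3a/3b*-DKO replicate 1) to 12 (without *Dnmt3a/3b*-DKO replicate 3) were higher and 1 to 3 lower, with a median of 0.29 to 0.42. The germline X cluster had 19 to 20 higher and a median of 1.37 to 1.71. Against a total without the 10 most abundant miRNAs, the share of the germline X cluster differed by 3.67 points in place of 2.46 and that of the *Sfmbt2* cluster by -3.07 in place of -1.07. Without 1 library, the share differed by 2.28 to 2.65 points for the germline X cluster, by 3.79 to 4.83 for *Dlk1-Dio3* and by -1.69 to -0.42 for the *Sfmbt2* cluster. With adjusted p-values, the effects in Exe and Epi differed for 30 miRNAs in place of 107 and those at E7.5 and E6.5 for 2 in place of 23, and DESeq2 called 1 X cluster miRNA in the last test in place of 0.

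The direction turned for miR-295-3p (range without 1 library -0.12 to 0.044), to 0.048 with TMM factors without *Dlk1-Dio3*, 0.0072 without the germline X cluster, 0.044 without control replicate 2 and 0.0057 without *Dnmt3a/3b*-DKO replicate 1. It turned without *Dnmt3a/3b*-DKO replicate 2 for let-7b-5p (-0.38, otherwise up to 1.98), miR-486a-5p and miR-486b-5p (-0.49, otherwise up to 2.10) and miR-486a-3p (-0.51, otherwise up to 2.09), and without control replicate 3 for miR-369-3p (-0.013, otherwise up to 1.23). Same-numbered libraries did not deviate together (correlations of 0.0934, 0.0273, 0.0423 and -0.144), and the main fit did not pair them. So few pairs cannot tell whether same-numbered libraries shared a litter or a batch. With the replicate number as a block, 33 were higher and 12 lower, among them all 20 of the X cluster.

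The shallowest control library, of 499399 counts, limits the scarce miRNAs, and fold changes of members with few counts in control are imprecise. The absence of a call does not show that a miRNA was alike.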
